A study of Saccharomyces cerevisiae with 50 samples.

Results

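The passage of budding yeast out of G1/S and through S phase toward G2 in the first cell cycle after release from alpha factor was followed by setting the RNA levels at 30, 35 and 40 min against those at 15, 20 and 25 min. The windows were set by the time labels alone. They hold 12 of the 50 arrays of the series, 6 in each window, since every time point was hybridised on 2 arrays with the dyes exchanged. The cells of both windows came from the laboratory strain W303 and had been held with alpha factor, the mating pheromone that stops MATa cells in G1, and then released into the rich medium YEPD. The 30-40 min cells and the 15-25 min cells therefore differ, per the labels, only in the time since release. The other channel of every array held RNA from an asynchronous W303 culture grown overnight in YEPD. Samples were taken at intervals of 5 min, and the labels mention only 1 time course, so the 3 time points of a window stand in for replicates and the dye-swap pair is a technical repeat. All p-values below therefore measure the spread between neighbouring time points, part of which may be technical.

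At the G1/S transition of budding yeast, the transcription factors SBF and MBF switch on G1 cyclin genes and the genes for DNA replication, repair and sister chromatid cohesion, and these are shut off again as cells go through S phase. Histone genes follow during S phase, when new chromatin is packed. Later in the cycle the forkhead proteins, Mcm1 and Ndd1 activate the CLB2 cluster, a set of genes for mitotic cyclins, mitotic kinases and cytokinesis proteins, while genes of the SIC1 cluster serve the exit from mitosis and the separation of daughter cells.

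Levels are given as log2 of the sample over the asynchronous reference, averaged over the dye-swap pair, and differences as the mean of the 30-40 min window minus the mean of the 15-25 min window in log2 units. Neither base nor direction is stated in the labels or the file. Values ending at -2 and 2 were taken as log10, and the direction is likely rather than certain: it follows the dye labels, and so turned the pheromone-induced genes FUS1, AGA1, FIG1 and PRM1 stood at 3.72, 5.79, 5.37 and 4.74 at 0 min. Arrays of a pair correlated, once turned the same way, with r between 0.401 and 0.638 across genes over the 6 pairs used, or between 0.550 and 0.812 when values at the limit were set aside. Array medians lay between -0.04 and 0.05. In these 12 arrays, 114 of the 6204 open reading frames held a value at the limit, and most differences of at least 1 log2 unit came from such frames (80, against 55 in frames without one). Across genes, the differences seen in the Cy3 and the Cy5 arrays alone correlated with r = 0.481, and with r = 0.697 over the 6090 frames without a limit value. The number of arrays limits the precision.

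No open reading frame passed an adjusted p of 0.05 in the limma test of the 3 time points against the 3 others. The smallest adjusted p was 0.0944, shared within 0.0001 by 173 frames. At an unadjusted p under 0.05, 1358 frames (21.9%) differed, 723 of them (11.7%) higher at 30-40 min and 635 (10.2%) lower. All 3 values of the later window lay above all 3 of the earlier one for 1068 frames (17.2%), and below them for 823 (13.3%); for a single gene an exact permutation test of 3 against 3 cannot go below 0.10. The median difference over all 6204 frames was 0.03.

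A limma fit over 4 windows, which adds the 90-100 and 75-85 min windows of the second cycle to the estimate of the spread, called 247 frames higher (3.98%) and 308 lower (4.96%) for the same first-cycle difference. The test planned for this difference was that of 3 time points against 3. The fit over 4 windows was an alternative to it, and its calls are used because the planned test called no frame. It takes the spread of a frame as equal in all 4 windows, which was not tested. These calls are used below as "called in the fit over 4 windows", and they depend strongly on single time points. Without 20 min 1 frame was called, which was not among the 555, without 35 min 1 frame, without 40 min 41 and without 15 min 116, while leaving out 25 min gave 977. The Cy3 arrays alone gave 65 higher and 158 lower, and the Cy5 arrays alone 162 higher and 186 lower. Every call named below rests on this fit and carries this limit. The SE given with a difference belongs to the test of 3 time points against 3. This holds also where the p beside it comes from the fit over 4 windows. Of the 555 called frames, 554 had the same sign in both dye orientations, which follows in part from calling on the mean of the dyes. The windows of 553 did not overlap. That follows in part from calling on the window difference against the spread of these same time points. The called differences were mostly small, with a median of 0.41 among the higher and -0.55 among the lower frames, and only 8 higher and 35 lower frames reached 2-fold.

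**Figure D1:**
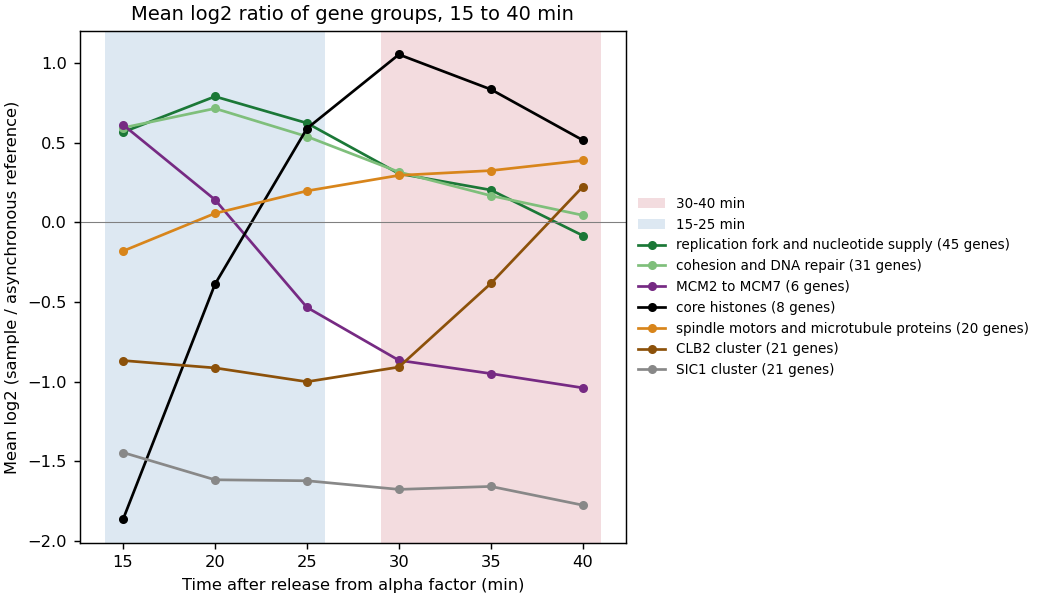
Mean log2 ratio of 7 gene groups at each time point, plotted against minutes after release, with the 30-40 min window shaded red and the 15-25 min window shaded blue. The mean of the replication list is lower at 30, 35 and 40 min than at any time from 15 to 25 min, the mean of the core histones is highest at 30 min (1.05), and that of the CLB2 cluster is highest at 40 min (0.22).

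The genes of DNA synthesis had the lowest median difference of the 28 lists. Of 45 genes for the replication fork and for nucleotide supply, 27 had all 30-40 min values below all 15-25 min values (all frames: 13.3%), 2 had them above (all frames: 17.2%), and 22 were called lower in the fit over 4 windows (all frames: 4.96%). The counts of every list below stand against these shares and against 3.98% of all frames called higher. Their median difference was -0.49, against 0.03 over all frames. The list mean was 0.31, 0.20 and -0.08 at 30, 35 and 40 min, against 0.57, 0.79 and 0.62 at 15, 20 and 25 min, so the level stood highest at 20 min and was still above that of the reference culture at 30 and 35 min.

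RNR1 (YER070W), the large subunit of ribonucleotide reductase, which makes deoxynucleotides, had 0.57, 0.24 and -0.60 at 30, 35 and 40 min, against 1.72, 1.99 and 1.46 at 15, 20 and 25 min. The windows were far apart, and the means were 0.07 ± 0.60 and 1.72 ± 0.26 (SD, n = 3 time points each). The difference was -1.65 ± 0.30 (SE), a level 3.15-fold lower at 30-40 min, with -1.69 in the Cy3 and -1.62 in the Cy5 arrays. Its limma adjusted p was 0.0944 in the test of these 6 time points and 0.0137 in the fit over 4 windows. The other subunits differed less: RNR3, the alternative large subunit, differed by -0.64 and was called lower, and RNR2, a small subunit, by 0.24 with its later values above the earlier ones.

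Fork proteins with a direct part in synthesis stood together. CDC45 (YLR103C), the helicase cofactor loaded when origins fire, had 0.81, 0.26 and -0.05 at 30, 35 and 40 min, against 1.57, 1.81 and 1.24 at 15, 20 and 25 min. POL30 (YBR088C), the sliding clamp PCNA, had 0.60, 0.17 and -0.33, against 1.22, 1.47 and 1.27. In both genes every later value lay below every earlier one, by -1.20 ± 0.24 and -1.17 ± 0.22 on average, and both were called in the fit over 4 windows (limma adjusted p = 0.0137 and 0.0148). DNA polymerase alpha and primase, which start each new strand, gave alike differences in POL1 (-1.04), POL12 (-1.04) and PRI2 (-1.07), all called lower. PRI1, the other primase subunit, gave -1.28, with 1 array value at the limit behind its 40 min value of -3.30, and its other values lay between -0.04 and 0.29. Further called genes were RFA1, which coats single-stranded DNA (-0.98), the flap nuclease RAD27 (-0.98), the fork protection factor TOF1 (-0.92) and its partners MRC1 (-0.75) and CSM3 (-0.49), the DNA ligase CDC9 (-0.90), and CTF4, which ties polymerase alpha to the helicase (-0.83).

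Not every fork gene was lower. The 4 subunits of GINS, part of the replicative helicase, had a median difference of -0.19 and none was called, and the 5 subunits of the clamp loader RFC had a median of -0.24 with 1 called, RFC5 at -0.32. DUT1, which removes dUTP, was higher in all 3 later values by 0.35. CDC21, the thymidylate synthase, had 1.28, 0.90 and 0.33, against 1.27, 1.67 and 1.60, and its windows overlapped, since the 30 min value lay just above the 15 min value.

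Of 31 genes for cohesion and repair, 18 had all later values lower (all frames: 13.3%), 3 had them higher (17.2%), and 13 were called lower (4.96%), with a median of -0.27. All 4 cohesin subunits measured, the proteins that hold sister chromatids together, were called lower with differences from -1.47 to -0.83. MCD1 (YDL003W), the subunit cut at anaphase, had 0.55, 0.11 and -0.31 at 30, 35 and 40 min, against 1.59, 1.84 and 1.32 at 15, 20 and 25 min. Its later values were all lower, by -1.47 ± 0.23 (limma adjusted p = 0.0102 in the fit over 4 windows). PDS5 (-0.93), which keeps cohesin on chromosomes, and SCC2 (-0.85), its loader, were also called. ESP1, the separase that cuts cohesin at anaphase, was 0.45 higher with windows apart but was not called.

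Within repair, the mismatch genes MSH6 (-1.04) and PMS1 (-0.86) were called lower. The checkpoint kinase RAD53 (YPL153C) had 0.31, -0.15 and -0.39, against 1.07, 1.17 and 0.80, a difference of -1.09 ± 0.19 with windows far apart. Its downstream kinase DUN1 differed by -0.82 and was called lower, and the upstream kinase MEC1 differed by -0.16 with overlapping windows.

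**Figure D2:**
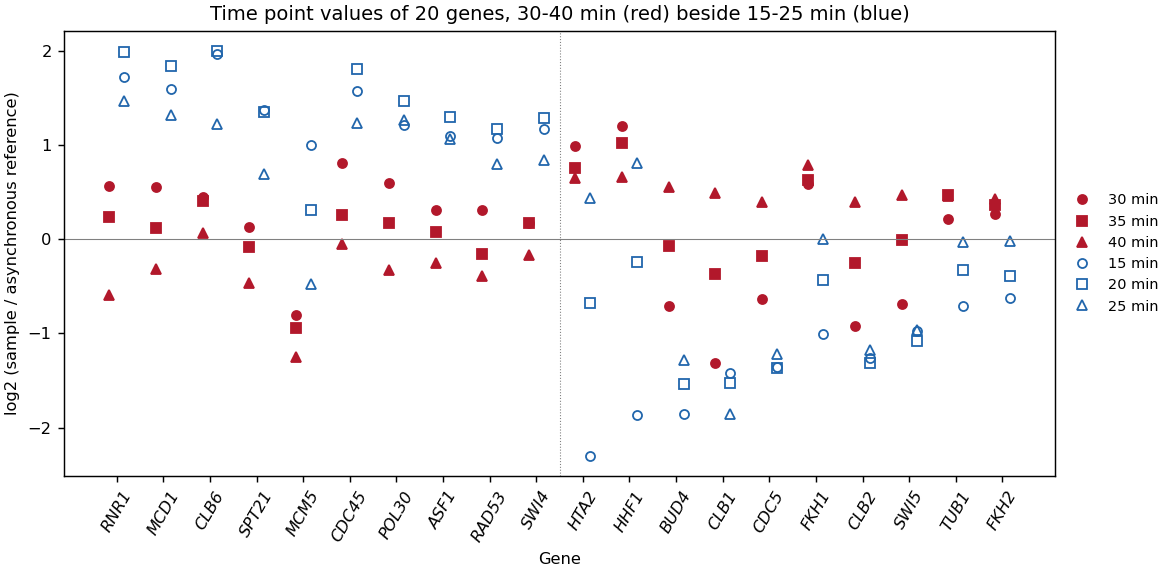
Time point values of 20 genes on the log2 scale of sample over reference, with the 30, 35 and 40 min values as filled red symbols and the 15, 20 and 25 min values as open blue symbols beside them. RNR1 and the other 9 genes on the left sit lower at 30-40 min, and on the right HTA2 spreads from -2.30 to 0.44 in the earlier window but only from 0.65 to 0.99 in the later one.

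Core histone genes gave the largest median difference of any list. The 8 genes for H2A, H2B, H3 and H4 had a median difference of 1.40, between 1.02 and 1.64. Their mean was 1.05, 0.83 and 0.52 at 30, 35 and 40 min, against -1.86, -0.39 and 0.59 at 15, 20 and 25 min. The largest step between neighbouring times was from 15 to 20 min in all 8, so the steepest part of their course falls inside the 15-25 min window, and by 40 min the mean was back below its 25 min value. Of the 8, 6 had overlapping windows, and none was called in either fit. HTA2 (YBL003C, an H2A gene) had 0.99, 0.76 and 0.65 at 30, 35 and 40 min, against -2.30, -0.67 and 0.44 at 15, 20 and 25 min. Its windows did not overlap, but the difference of 1.64 ± 0.62 had a limma adjusted p of 0.19 (fit over 4 windows: 0.0963). HHF1 (YBR009C, an H4 gene) had 1.20, 1.02 and 0.66, against -1.87, -0.25 and 0.81, and its windows overlapped. The paired genes HTA1 and HTA2, HTB1 and HTB2, HHT1 and HHT2, and HHF1 and HHF2 are nearly identical in sequence, so their signals may be shared on an array and do not count as independent.

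The variant and linker histones differed less. HTZ1 (YOL012C), the H2A variant placed next to promoters, had 0.20, 0.36 and 0.44, against -0.36, -0.32 and -0.09, a difference of 0.59 ± 0.10 that was the only histone call (limma adjusted p = 0.0148 in the fit over 4 windows). The linker histone HHO1 (0.64) and the centromeric H3 variant CSE4 (0.20) had overlapping windows.

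Of 15 genes that regulate histone transcription or deposit histones, 8 had all later values lower, none had them higher, 7 had overlapping windows and 5 were called lower; the median was -0.21. SPT21 (YMR179W), an activator of histone genes, had 0.13, -0.08 and -0.47 at 30, 35 and 40 min, against 1.38, 1.35 and 0.69 at 15, 20 and 25 min. ASF1 (YJL115W), a chaperone of H3 and H4, had 0.31, 0.07 and -0.26, against 1.09, 1.30 and 1.07. The windows of both genes were clearly separate, with differences of -1.28 ± 0.23 and -1.11 ± 0.15. The H3 acetyltransferase RTT109 (-0.55), the chaperone RTT106 (-0.48) and RLF2, the large subunit of chromatin assembly factor CAF-1 (-0.68), completed the calls. Of the HIR complex, which represses histone genes, only HIR2 (-0.33) had windows apart, and SPT10, the partner of SPT21, differed by -0.10 with overlapping windows.

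Of the 17 origin licensing genes, 7 had later values that were all lower and 4 had them all higher, and 5 were called lower. The MCM2 to MCM7 genes, which encode the 6 subunits of the helicase loaded onto origins in G1, all had later values below the earlier ones, with a median of -0.99 (-1.27 to -0.87), and all but MCM7 were called. Their mean was -0.87, -0.95 and -1.04 at 30, 35 and 40 min, against 0.61, 0.14 and -0.53 at 15, 20 and 25 min. Unlike the fork genes, they stood highest at 15 min and were already under the level of the reference culture at 25 min. MCM5 (YLR274W) had -0.81, -0.94 and -1.25, against 0.995, 0.31 and -0.47, a difference of -1.27 ± 0.35 (limma adjusted p = 0.124 in the test of these 6 time points and 0.0406 in the fit over 4 windows). The origin recognition complex, which marks origins, had a median of 0.16 over its 6 genes. ORC1 was the highest at 0.49, with 0.25, 0.53 and 0.47, against -0.40, -0.02 and 0.20. TAH11, the loader protein Cdt1, was 0.31 higher and CDC6, its co-loader, gave -0.35 with overlapping windows. DBF4, the regulatory subunit of the origin-firing kinase, gave -0.28 with windows apart and lower.

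Among G1 cyclins and SBF targets, 11 of 24 genes had all later values lower, 4 had them higher and 8 were called lower, with a median of -0.38. CLB6 (YGR109C), an S-phase cyclin, showed the largest difference. It had 0.44, 0.41 and 0.06 at 30, 35 and 40 min, against 1.97, 1.99 and 1.22 at 15, 20 and 25 min, or -1.42 ± 0.22, a level 2.68-fold lower (limma adjusted p = 0.0122 in the fit over 4 windows). Its paralog CLB5 had 0.28, 0.42 and 0.33, against 0.27, 0.28 and 0.29, so the windows overlapped and the difference was 0.06 ± 0.07. CLN2 (YPL256C) had 0.33, 0.13 and -0.45, against 0.87, 1.17 and 0.72. CLN1 remained high for longer, with 0.93, 0.91 and 0.53, against 1.26, 1.44 and 1.13. Both G1 cyclins were called lower, at -0.92 and -0.49, and the Pho85 cyclin PCL1 (-0.72) as well. CLN3, the cyclin that acts upstream of SBF, differed by -0.05 with overlapping windows. Bud-site and septin-linked targets called lower were the kinase GIN4 (-0.89), BNI4, which anchors chitin synthesis at the neck (-0.84), TOS2 (-0.73) and the GTPase RSR1 (-0.66). On the other side SRL1, a cell wall mannoprotein, had 0.17, 0.47 and 0.32, against -1.41, -0.41 and -0.04.

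Cell cycle transcription regulators differed in both directions, and their median was 0.09. Of 22, 8 had all later values higher and 4 lower. The DNA-binding subunit of SBF, SWI4 (YER111C), had 0.17, 0.17 and -0.16, against 1.17, 1.28 and 0.84, a difference of -1.04 ± 0.15. YOX1, a repressor that acts with Mcm1, had 0.97, 0.83 and 0.49, against 2.22, 1.72 and 1.18. Both sets of windows were apart and both genes were called lower, as were TOS4 (-0.88), whose windows overlapped slightly, and the SBF and MBF cofactor STB1 (-0.49). The MBF subunit MBP1 was 0.35 higher and the MBF repressor NRM1 0.37 higher, with windows apart, but neither was called. The forkhead genes were the called ones on the higher side. FKH1 (YIL131C) had 0.58, 0.63 and 0.79 at 30, 35 and 40 min, against -1.01, -0.44 and 0.00 at 15, 20 and 25 min. FKH2 (YNL068C) had 0.26, 0.36 and 0.42, against -0.63, -0.39 and -0.02. All later values were higher in both genes, by 1.15 ± 0.24 and 0.70 ± 0.15 (limma adjusted p = 0.0152 and 0.0201 in the fit over 4 windows). NDD1, their coactivator, was 0.23 higher with windows apart and not called.

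The CLB2 cluster stood above its earlier levels mainly at the end of the later window. Of 21 genes, 11 had all later values higher (all frames: 17.2%), none had them lower, and 3 were called, with a median of 0.68. The list mean was -0.91, -0.38 and 0.22 at 30, 35 and 40 min, against -0.87, -0.91 and -1.0 at 15, 20 and 25 min, so at 30 min it was still within the earlier range, and 19 of the 21 genes were highest at 40 min. BUD4 (YJR092W), a landmark for bud site choice, had -0.71, -0.08 and 0.55, against -1.85, -1.53 and -1.28. The polo kinase CDC5 (YMR001C) had -0.63, -0.18 and 0.40, against -1.36, -1.37 and -1.22. Their windows were apart, with differences of 1.48 ± 0.31 and 1.17 ± 0.24, and with BUD3 (0.85), the partner of BUD4, they were the 3 calls. The transcription factor SWI5 (YDR146C) had -0.68, -0.01 and 0.47, against -0.98, -1.07 and -0.97 (0.93 ± 0.26, limma adjusted p = 0.0551 in the fit over 4 windows). CDC20, the activator of the anaphase-promoting complex, had -1.09, -1.69 and -0.45, against -0.77, -0.93 and -0.90, and its windows overlapped. HOF1, a cytokinesis gene, gave -0.59 with 1 array value at the limit at 30 min (-4.13), and 0.25 with that value set to missing.

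The 4 cyclins of G2 and mitosis were all higher on average, with a median of 0.67. CLB1 had -1.31, -0.37 and 0.49, against -1.42, -1.53 and -1.86, and CLB2 (YPR119W) had -0.92, -0.26 and 0.39, against -1.26, -1.31 and -1.18. At 30 min both were close to their earlier values and by 40 min both were above the reference culture, and neither was called (limma adjusted p = 0.0831 and 0.0615 in the fit over 4 windows). CLB4, with 0.39, 0.29 and 0.32, against -0.23, -0.06 and 0.25, was higher at every later time, and CLB3, an early mitotic cyclin, had overlapping windows (0.15).

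Of 20 genes for spindle motors and microtubule proteins, 12 had all later values higher (all frames: 17.2%) and none lower, and 3 were called, with a median of 0.37. The largest step between neighbouring times was from 15 to 20 min in 6 of these 12, and 9 of the 20 were highest at 40 min. Their mean was 0.29, 0.32 and 0.39, against -0.18, 0.06 and 0.20. TUB1 (YML085C), an alpha-tubulin, had 0.21, 0.47 and 0.45, against -0.70, -0.33 and -0.03, or 0.73 ± 0.17. TUB3, the other alpha-tubulin (0.46), and VIK1, a partner of the Kar3 motor (0.47), were the remaining calls, and TUB2, the beta-tubulin, was 0.60 higher with windows apart (limma adjusted p = 0.0551 in the fit over 4 windows). The kinesins KIP3 (0.57), KIP2 (0.36) and CIN8 (0.49) also had windows apart without a call.

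Of 17 genes for the spindle pole body, the yeast centrosome, 6 had all later values lower, none higher, and 11 had overlapping windows, with a median of -0.20 and 4 called lower. The calls were the gamma-tubulin TUB4 (-0.51), the core layer proteins SPC42 (-0.50) and SPC29 (-0.43), and NBP1 (-0.39), which inserts the new body into the nuclear envelope. The gamma-tubulin partners SPC97 and SPC98 gave 0.16 and 0.24 with overlapping windows.

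Of 35 kinetochore and spindle checkpoint genes, 9 had all later values higher (all frames: 17.2%) and 7 all lower (13.3%), and the median was 0.06. The called ones on the lower side were the centromere protein MIF2 (-0.50), the checkpoint kinase BUB1 (-0.31), NKP1 (-0.30) and CNN1 (-0.27), and on the higher side NNF1 (0.47), of the complex that joins inner and outer kinetochore. SPC24 (0.28), SPC25 (0.31) and NUF2 (0.28), which bind microtubules with NDC80, had windows apart and higher without a call. Of 7 measured DASH genes, the ring that couples kinetochores to microtubules, DAD1 (0.34) was called higher and ASK1 (0.38) had windows apart, DUO1 gave -0.25 with windows apart and lower, and DAD2 gave 0.99 with 1 limit value at 20 min and -0.15 without it. The list median was 0.26. Of 6 genes for condensin and topoisomerase II, YCG1 (0.45) was called higher, and the median was 0.04.

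**Figure D3:**
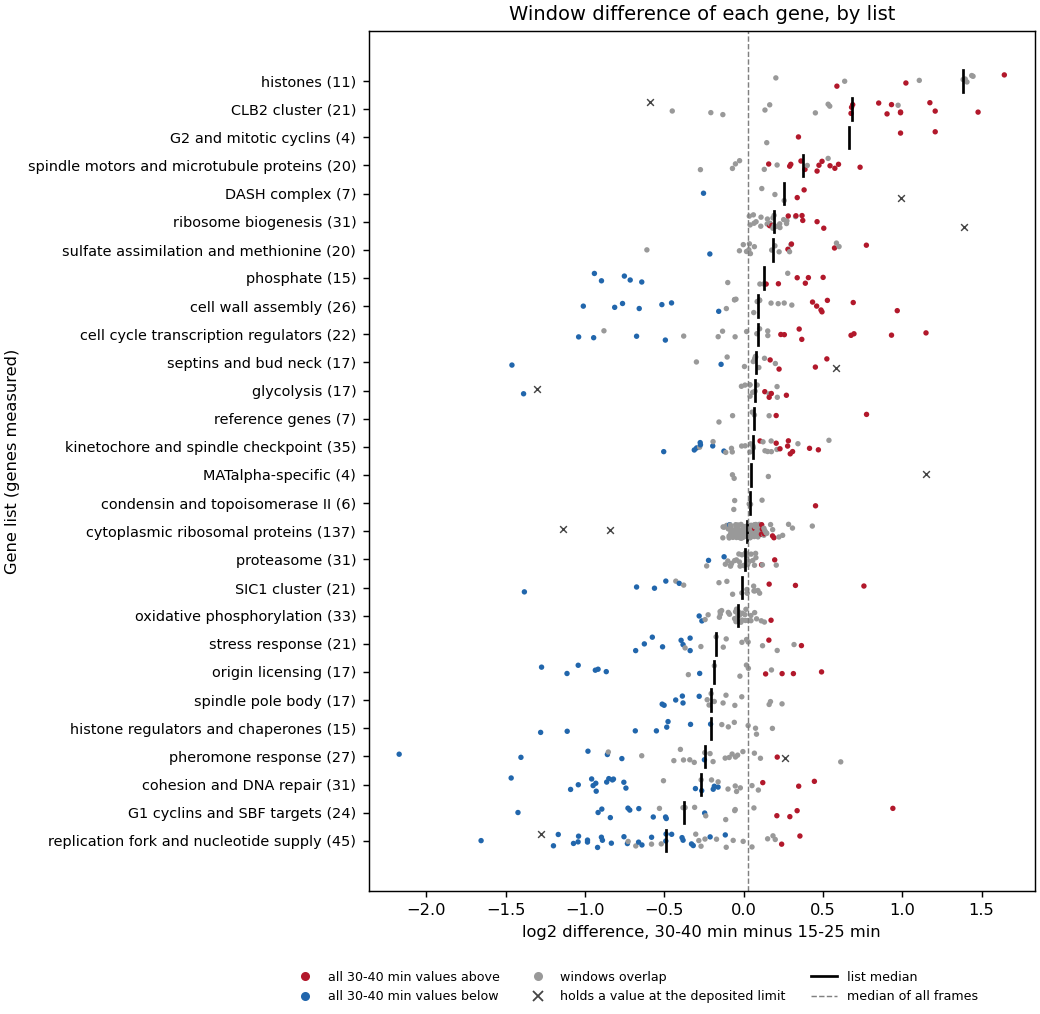
Difference between windows of every measured gene, in log2 units on the horizontal axis, for 28 gene lists sorted by their median (black bars), with red points for genes whose 30-40 min values were all above the 15-25 min values, blue points for those all below, grey points for overlapping windows and crosses for genes in which any array stood at the limit, whichever their sign. The histones stand at the top with a median of 1.38 and the replication list at the bottom with -0.49.

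Within the list of 17 bud neck and septin genes, 1 gene had a large difference beside a small median shift. Other neck genes with large differences, GIN4 and BNI4 (lower) and BUD3 and BUD4 (higher), are given above under other lists. KCC4 (YCL024W), a septin-bound kinase, had -0.08, -0.15 and -0.56, against 1.44, 1.26 and 0.89, with windows far apart. Its difference of -1.46 ± 0.18 was called lower (limma adjusted p = 0.0102 in the fit over 4 windows). Of the 17 genes, 4 had later values all higher and 2 lower, and the median was 0.08. The core septins CDC3, CDC10, CDC11 and CDC12 had a median of 0.18, and CDC11 (0.52) was called higher, as was HSL7 (0.45), an adaptor of the bud-neck kinase pathway. BUD9, a bud site protein, gave 0.58 with 1 limit value at 25 min and -0.45 without it.

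Of 26 cell wall genes, 7 were higher and 7 lower in all later values, 5 were called each way and the median was 0.09. Called higher were the glucan remodelling enzymes GAS3 (0.97) and GAS5 (0.49), the exoglucanase EXG1 (0.69), the mannosyltransferase subunit MNN10 (0.53) and the mannoprotein CCW12 (0.49). GAS3 (YMR215W) had 0.18, 0.40 and 0.53 at 30, 35 and 40 min, against -0.93, -0.57 and -0.30 at 15, 20 and 25 min. Called lower were the wall proteins SED1 (-0.81) and TIP1 (-0.76), the transglycosylase CRH1 (-0.66), the protease YPS1 (-0.52) and the chitin synthase CHS3 (-0.45). SED1 (YDR077W) had 0.41, 0.32 and -0.01, against 1.30, 1.13 and 0.73. The windows of both GAS3 and SED1 were apart, in opposite directions.

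Of the 21 genes of the SIC1 cluster, 12 lay under -1 at all 6 time points, and the list mean was -1.68, -1.66 and -1.77 at 30, 35 and 40 min, against -1.44, -1.62 and -1.62 at 15, 20 and 25 min. HSP150, a wall protein, had -1.92, -1.90 and -2.54, against 0.07, -0.98 and -1.30, and SIC1, the inhibitor of S-phase cyclin kinase, had -1.45, -1.26 and -1.37, against -0.91, -0.89 and -1.06. Both had windows apart and lower, and neither was called. SUN4, a wall protein of cell separation, was the exception, with -1.55, -1.30 and -1.27, against -2.39, -2.20 and -1.81, and was called higher (0.76 ± 0.16, limma adjusted p = 0.021 in the fit over 4 windows). The list median was -0.01, with 3 genes higher and 5 lower in all later values.

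The 27 genes of the pheromone response had a median difference of -0.25, with 6 lower (all frames: 13.3%), 1 higher and 20 overlapping between windows, and 20 of the 27 were highest at 15 min. MFA1 (YDR461W), a gene for the a-factor pheromone, had -0.30, -0.54 and -0.75 at 30, 35 and 40 min, against 2.84, 1.64 and 0.45 at 15, 20 and 25 min. Its difference of -2.17 ± 0.54 came from 11 arrays, since 1 value is missing, and it was the only call of the list (limma adjusted p = 0.021 in the fit over 4 windows). AGA2, a subunit of the a-agglutinin that joins mating cells, had 0.02, -0.19 and 0.00, against 2.53, 1.17 and 0.32. The receptor STE2 had -2.0, -1.97 and -1.91, against -0.50, -1.12 and -1.68. In these genes the 15 min value was the highest and the 25 min value stood nearest the later window. FUS1 differed by -0.09 with overlapping windows. The MATalpha-specific agglutinin SAG1 lay between -0.35 and 0.22, with overlapping windows, and the alpha-factor gene MF(ALPHA)1 gave 1.15 with 1 limit value at 20 min (-3.33). The 4 MATalpha-specific genes measured had a median of 0.05.

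Of the 15 phosphate genes, 6 were higher and 5 lower in all later values, and the median was 0.13. The acid phosphatases PHO3, PHO5, PHO11 and PHO12 all had later values below the earlier ones, with a median of -0.81, and PHO11 (-0.90) and PHO12 (-0.94) were called lower. PHO12 had -0.80, -1.20 and -1.10, against 0.15, -0.03 and -0.39. PHO11 and PHO12, and likewise PHO3 and PHO5, are close copies, so their signals may be shared. The high-affinity transporter PHO84 had -0.24, -0.02 and -0.10, against -0.64, -0.74 and -0.48, and was called higher at 0.50, as was PHM6 (0.41), while the sodium-linked transporter PHO89 gave -0.75.

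Of 20 sulfate and methionine genes, 4 had later values all higher, near the share of all frames (17.2%), and 1 had them lower, with a median of 0.19. The methionine permease MUP1 was called higher, with 0.50, 0.77 and 0.89, against 0.20, -0.36 and 0.00. In ribosome biogenesis all 31 genes had a positive difference (all frames: 3491 of 6204), but only 8 had windows apart, 3 were called and the median was 0.19. The calls were DBP2 (0.51), NSR1 (0.46) and RPA43 (0.37), a helicase, a nucleolin-like protein and a subunit of RNA polymerase I. Levels of the 31 genes were under those of the reference culture at every time point on average, with -0.32, -0.26 and -0.14, against -0.68, -0.45 and -0.33. Ribosomal protein genes barely differed, with a median of 0.02 over 137 genes, 8 higher and 1 lower in all later values, and none called.

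Stress genes had a median of -0.17, with 8 of 21 lower and 2 higher in all later values. The small heat shock proteins HSP26 (-0.68) and HSP42 (-0.63) and the glycogen phosphorylase GPH1 (-0.38) were called lower. HSP26 had 0.33, 0.36 and 0.27, against 1.18, 1.04 and 0.77, although its difference was -1.05 in the Cy3 and -0.31 in the Cy5 arrays. In glycolysis, where the median over 17 genes was 0.07, GLK1, glucokinase, had -0.92, 0.35 and 0.11, against 1.67, 1.21 and 0.81, and was the only call; 4 genes were higher and 1 lower in all later values, and TPI1 gave -1.30 with 1 limit value at 40 min. Oxidative phosphorylation (33 genes, median -0.03, 1 higher and 2 lower) and the proteasome (31 genes, median 0.01, 2 each way) had no call. Of 7 genes commonly used as references the median was 0.07, with 2 higher in all later values, but TFC1, a subunit of the RNA polymerase III factor TFIIIC, had 0.11, 0.26 and 0.25, against -0.56, -0.87 and -0.27, and was called higher (0.77 ± 0.15, limma adjusted p = 0.0162 in the fit over 4 windows). ACT1, actin, differed by -0.16 with overlapping windows.

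The frames counted here were chosen for a difference between the windows. That choice all but fixes the window of the highest value and favours a large step across the boundary, so these counts are descriptions only. Over all 6204 frames, 1408, 836 and 617 were highest at 15, 20 and 25 min. The later times 30, 35 and 40 min had 621, 1100 and 1622. Largest steps were not counted over all frames. Of the 308 frames called lower in the fit over 4 windows, 169 were highest at 15 min, 123 at 20 min and 16 at 25 min. Of the 247 called higher, 154 were highest at 40 min, 77 at 35 min and 16 at 30 min. The largest step between neighbouring times was from 25 to 30 min, across the boundary of the windows, for 125 of the lower and 111 of the higher frames, and from 20 to 25 min for 91 and 46. Among replication genes with windows apart and lower, 14 of 27 had their largest step from 25 to 30 min. Among the licensing genes with windows apart and lower, 6 of 7 had it from 20 to 25 min. Of the 11 CLB2 cluster genes with windows apart and higher, 5 had it from 30 to 35 min and 4 from 35 to 40 min.

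**Figure D4:**
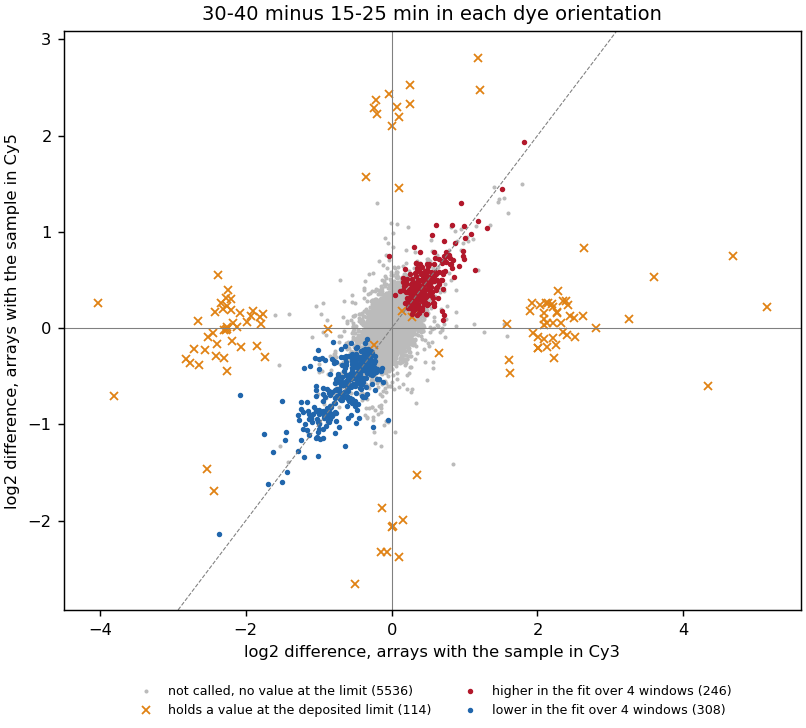
Difference between windows of each frame in log2 units, from the arrays with the sample in Cy3 on the horizontal axis and from those with it in Cy5 on the vertical axis, with the frames called higher (246 points) and lower (308 points) in the fit over 4 windows in red and blue, frames in which any array stood at the limit as crosses, 1 called frame among them, and the dashed line where both dyes are equal. Of the 555 called frames 554 have the same sign in both dyes.

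Both dye orientations measured the same RNA. Within the windows the Cy3 arrays shared 1 date batch in their titles and the Cy5 arrays another, so window and batch are not mixed, while dye and batch cannot be told apart. Over all frames 4390 (70.8%) had the same sign in both.

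For the second cycle, windows 60 min later were used, without a fresh pheromone arrest, at 90, 95 and 100 min against 75, 80 and 85 min. Whether they hold the same phases was not tested. At 75, 80 and 85 min the SIC1 cluster mean was 0.58, 0.33 and 0.00, against -1.44, -1.62 and -1.62 at 15, 20 and 25 min. The CLB2 cluster had -0.02, -0.34 and -0.54, against -0.87, -0.91 and -1.0. MCM2 to MCM7 lay closer, with 0.49, 0.09 and -0.25, against 0.61, 0.14 and -0.53. In the fit over 4 windows 36 frames were called higher there (0.58%) and 59 lower (0.951%). Both cycles were measured against RNA of an asynchronous culture but share no time point; their arrays carry different title batches, so cycle and batch cannot be told apart. In the second cycle the Cy3 arrays of both windows shared 1 title batch, but the Cy5 arrays at 75 and 80 min carried another batch than those at 85 to 100 min, so batch is partly mixed with window there, and these arrays also enter the spread of the fit over 4 windows. The Cy3 arrays alone gave 14 calls higher and 29 lower in the second cycle, the Cy5 arrays alone 2 and 3, and the fit without the Cy5 arrays at 75 and 80 min 41 and 62. Of the 555 frames called in the first cycle, 478 (86.1%) had the same sign in the second, 214 higher and 264 lower, and 63.2% of all frames did. RNR1, for example, had a second-cycle difference of -0.80, MCD1 -0.80, CLB6 -0.72, MCM5 -1.01, BUD4 0.66 and FKH1 0.86. The core histones had a median of 0.68 there, the MCM2 to MCM7 genes -0.70, the replication list -0.20 and the CLB2 cluster 0.12. Of the 555 frames, 519 had a smaller or opposite difference in the second cycle, which follows in part from calling on the first. GAS3 and TUB3 were among the others: GAS3 had 1.18, against 0.97 in the first, and TUB3 had 0.68, against 0.46. The median of the SIC1 cluster was also further from 0 in the second cycle (-0.96, against -0.01).

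The difference between the cycles was tested itself. No frame passed an adjusted p of 0.05 in that limma contrast, whose smallest adjusted p was 0.105, and 680 frames had an unadjusted p under 0.05. The largest contrasts with the same sign in both orientations were -2.14 for the drug transporter PDR18 and -2.06 for ZIP1, a synapsis protein of meiosis whose 75 min value stood at the limit in both dyes, on the lower side, and 2.42 for the unnamed frame YOL046C and 2.29 for BNA4, an enzyme of NAD synthesis, on the higher side. The others were MSC1 (-1.70), PGM2 (-1.50) and BUD5 (-1.47), and AIM44 (1.79), PCL9 (1.63) and DAK2 (1.59). Of these 10 frames 5 hold a value at the deposited limit in the first-cycle arrays. Single second-cycle times also stood far out, at -3.05 for DAK2 at 90 min. At 100 min BNA4 had -3.17 and YOL046C -3.41. The first-cycle difference of YOL046C was 2.80 in the Cy3 and 0.00 in the Cy5 arrays. PCL9, a Pho85 cyclin of early G1, had -1.75, -1.61 and -1.64 at 30, 35 and 40 min, against -1.92, -1.71 and -1.45 at 15, 20 and 25 min, a first-cycle difference of 0.02, and its second-cycle difference was -1.61. Of the 21 SIC1 cluster genes 19 were lower in the later window of the second cycle and 11 were called there, with a list median of -0.96, but the lowest adjusted p of the cluster between cycles was 0.105.

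**Figure D5:**
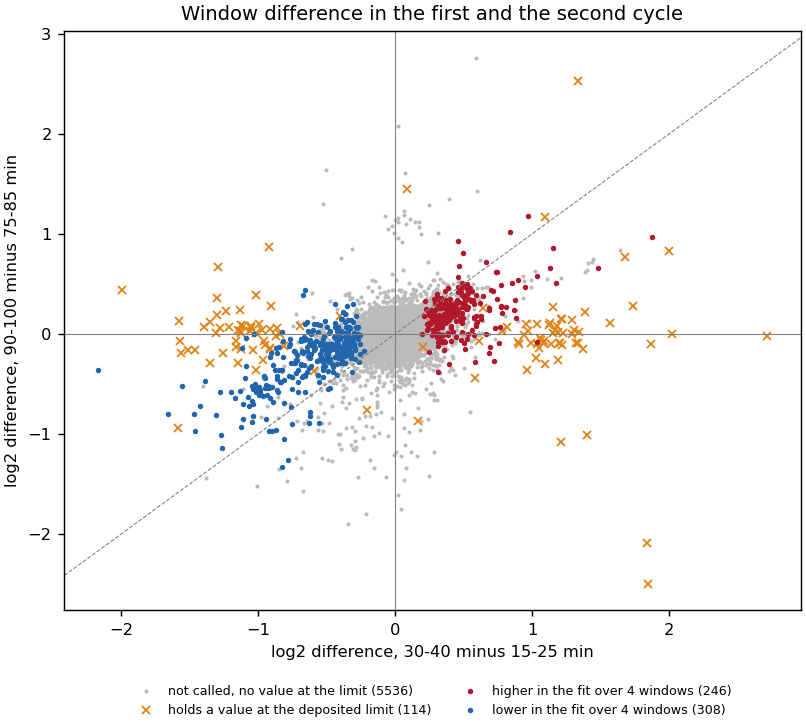
Difference of each frame in log2 units, 30-40 minus 15-25 min on the horizontal axis and 90-100 minus 75-85 min on the vertical axis, with frames called in the first cycle by the fit over 4 windows in red (246 points, higher) and blue (308 points, lower), frames with a limit value in the first-cycle arrays as crosses and the dashed line of equal differences. Of the 555 called frames, 478 have the same sign in both cycles and lie at the upper right or lower left; since they were called on the first cycle, their distance from the dashed line tests nothing.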

How the data were processed

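Per the labels, total RNA of W303 cells and of an asynchronous reference was hybridised on 2-colour arrays. The authors deposited 1 log ratio per array and frame, between -2 and 2, taken here as log10 of Cy5 over Cy3; base, normalization and centring are not given in the sources used here. Values at the limit (138 of 74448 in these 12 arrays, within 0.005) were kept and 118 were missing. Of 6217 lines 13 were left out, and 5704 of 6204 frames matched an R64 name. Arrays with the sample in Cy3 were turned, values converted to log2 and dye-swap pairs averaged. The comparison used limma 3.58.1 in R 4.3.3, with Benjamini-Hochberg adjustment over 6204 frames at 0.05. It was also run on simulated data with independent time points and constant shifts. Those data held no trend within a window and no limit values. They therefore cannot show whether neighbouring time points serve as replicates. The 28 gene lists held 688 entries, with some genes in more than 1 list, and the measured entries made up 674 distinct frames. Of the 555 frames called over 4 windows, 105 were members. The members and lists were chosen with earlier results of these data known. Named genes are list members, and the 5 largest contrasts each way between cycles; others are said to be chosen after their values were seen. Alternatives were the dye, limit values, scaling, robust eBayes, single arrays with dye as a block, log base, narrower windows, the fit over 4 windows and leaving out each time point. Some measured genes are not reported here.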

Additional observations from a re-analysis of the deposited data

How the results depend on the processing

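For the 30-40 against 15-25 min comparison, which called 0 frames in the limma test (1358 at an unadjusted p under 0.05), the Cy3 arrays alone, the Cy5 arrays alone, median-centred arrays, quantile normalization, robust eBayes and reading the deposited values as log2 also called 0. With limit values missing 56 frames were called (13 higher, 43 lower), with 35 and 40 min against 15 and 20 min 198 (69 higher, 129 lower) and in the fit over 4 windows 555. Leaving out 1 time point gave 0 to 324, with 324 without 25 min (119 higher, 205 lower) and 1 without 20 min. Single arrays with dye orientation as a replicate block gave 622 (290 higher, 332 lower); this pairing of arrays is the dye swap of 1 RNA, not of separate cultures, and the arrays of a time point had an estimated correlation of 0.245. For the contrast between cycles (0 called, 680 at an unadjusted p under 0.05) the same block gave 59, and leaving out 1 time point gave 0 to 24 (24 without 25 min, 4 without 85 min, 3 without 30 min, 3 without 90 min, 1 without 75 min), while its other alternatives gave 0. For the fit over 4 windows, whose alternatives were chosen after seeing the data, the Cy3 arrays alone called 223, the Cy5 arrays alone 348, and limit values missing 655. Median-centring kept the total at 555 but moved the split to 207 higher and 348 lower. Leaving out 1 time point gave 1 to 977, including 638 without 30 min and 348 without 80 min, and the cause was not tested. For the second cycle (95 called, 36 higher and 59 lower), also tried after seeing the data, the Cy3 arrays alone called 43, the Cy5 arrays alone 5 and the fit without the Cy5 batch of 75 and 80 min 103. Of 2970 values of named genes under alternatives, 2564 kept sign and side of the threshold, 382 passed it only under the alternative and 24 changed sign. The Cy3 arrays alone turned MEC1 (0.0544), HOF1 (0.35) and PCL9 (-0.12), and the Cy5 arrays alone CLB5 (-0.000516), CLN3 (0.10), DAD2 (-0.11) and BUD9 (-0.47). Limit values missing turned HOF1 (0.25), DAD2 (-0.15) and BUD9 (-0.45), the narrower windows HOF1 (0.38) and BUD9 (-0.60), median-centring PCL9 (-0.00498) and quantile normalization PCL9 (-0.0812). Leaving out 1 time point gave CLN3 -0.22 to 0.22, CDC20 -0.52 to 0.10, HOF1 -1.42 to 0.56, SPC97 -0.0364 to 0.29, DAD2 -0.0894 to 1.54, BUD9 -0.47 to 1.14, PCL9 -0.0947 to 0.14 and the ZIP1 contrast between cycles -3.25 to 0.15. Limit values bound the levels behind them, and no depth or spot signal is at hand.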

Other observations

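The following genes are in none of the lists and were chosen after their values were seen. SUR7 (YML052W), a plasma membrane protein of eisosomes, had the largest difference of the frames called higher in the fit over 4 windows and free of limit values, with -0.62, 0.22 and 0.76 at 30, 35 and 40 min, against -2.15, -1.85 and -1.27 at 15, 20 and 25 min. Its windows were far apart, by 1.87 ± 0.37 (limma adjusted p = 0.0148 in the fit over 4 windows). The eisosome core genes PIL1 and LSP1 went the other way, each by -0.36 with windows apart, and neither was called. ACM1 (YPL267W), an inhibitor of the anaphase-promoting complex with Cdh1, had 0.77, 0.45 and 0.06, against 2.34, 2.29 and 1.32, and was called lower at -1.55 ± 0.31. MSA1, a coactivator of SBF and MBF, gave -1.13, with the course of an early gene: 0.82 at 15 min and already -0.47 at 25 min. SML1, the inhibitor of ribonucleotide reductase, was higher, with -0.08, 0.81 and 0.90, against -0.15, -0.38 and -0.35, whereas RNR1 was lower.

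Of the iron uptake genes looked at, FET3, the ferroxidase of high-affinity uptake, had -0.14, 0.00 and 0.49, against -1.38, -0.85 and -0.52, and was called higher, as were FRE1 (0.88), FIT2 (0.72) and FIT3 (0.69), while FTR1, the permease that works with FET3, gave 0.61 with overlapping windows. SIT1 (0.18), ARN1 (0.27) and FRE2 (-0.0275) had overlapping windows, and ARN2 (0.28) had windows apart without a call. The second-cycle differences of FET3, FRE1, FIT2 and FIT3 were -0.08, 0.16, -0.27 and -0.19. HEK2 (0.95) and SHE2 (0.87), whose proteins bind localised ASH1 mRNA, were called higher at times when ASH1 itself was at -1.83, -1.71 and -2.08. SHE2 had 1.18, 0.16 and 0.33 at 30, 35 and 40 min, so 30 min weighed heavily in its difference. That difference was 1.14 in the Cy3 and 0.60 in the Cy5 arrays. With the Cy3 arrays alone the fit over 4 windows gave SHE2 a limma adjusted p of 0.19.

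The 7 subtelomeric YRF1 helicase frames were all called lower, with a median of -1.0 (-1.13 to -0.94) and means of 0.11, -0.16 and -0.45 at 30, 35 and 40 min, against 1.24, 0.88 and 0.42 at 15, 20 and 25 min. They are near-identical copies, so this is 1 signal and not 7. Neither its source among the copies nor the part of cross-hybridisation was tested. The 308 lower calls, and the 35 of them that reached 2-fold, therefore hold it more than 1 time. The second-cycle median of the 7 frames was -0.57. The unnamed frames YHL050C (-1.04), YML133C (-1.02) and YLL066C (-1.02), among others, had alike courses and were also called lower. Whether they carry the same signal was not tested. Other frames called lower were INO1, for inositol synthesis (-1.09), GFA1, the first step of chitin precursor synthesis (-1.09), and PYC1, pyruvate carboxylase (-1.03). INO1 and PYC1 had second-cycle differences of -0.04 and 0.00, although neither contrast between cycles passed the test.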
